A study of Mus musculus with 12 samples.

Results

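Cardiac fibroblasts treated with macrophage migration inhibitory factor (MIF) were compared directly with fibroblasts treated with the soluble form of the MIF receptor CD74 (sCD74), without use of the carrier arrays in the test. The comparison took the 3 MIF arrays and the 3 sCD74 arrays, 6 of the 12 in the series, and paired them by replicate number, which carries the same code in the titles of both groups. All 22206 probe sets that were not controls entered. The cells were wild-type, came from hearts of C57BL/6J mice aged 1 to 7 days, and were kept for 10 to 14 days, by which time they were described as myofibroblasts. The first group received 8 nM MIF and the other 40 nM sCD74, both for 8 h. The molar doses differ, so that protein and dose cannot be told apart. The other 6 arrays, 3 with carrier and 3 with both proteins at the same doses, are given beside the results as levels only. The p-values weigh each mean difference against the spread of the differences within the 3 pairs. The fit draws the spread of each probe set toward one common to all probe sets. The labels do not say whether arrays of a group came from separate cell isolations, so the spread of the pairs may be technical.

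MIF is a secreted cytokine that binds the surface protein CD74, which signals together with CD44 and with the chemokine receptors CXCR2, CXCR4 and ACKR3. The extracellular part of CD74 can be shed, and the soluble form can bind MIF. Downstream of inflammatory receptors, the transcription factor NF-kappaB induces chemokines, adhesion molecules and its own inhibitors, while type I interferon acts through other factors on a separate set of antiviral genes. Myofibroblasts are fibroblasts that have taken on contractile fibres and secrete much matrix.

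The values are log2 signals as deposited, and a difference is always the MIF level minus the sCD74 level, so that a positive difference is a higher level with MIF. The median probe set lay between 8.10 and 8.13 on the 6 arrays, and positive controls exceeded negative controls by 3.67 to 4.17 at the median. Across probe sets, r was 0.988 to 0.995 within a group and 0.994 to 0.996 between the MIF and sCD74 arrays of a replicate number. With 3 pairs, a difference had a standard error of 0.14 at the median, and the number of arrays sets this precision. The negative control level, 7.53, is used as the line below which a group mean carries little signal, and 12378 probe sets lay above it in both groups.

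No gene passed the test. After Benjamini-Hochberg adjustment over the 22206 probe sets, limma called 0 as higher with MIF (0% of those tested) and 0 as higher with sCD74 (0%), and the smallest adjusted p was 0.9998. At an unadjusted p under 0.05 limma gave 625 probe sets higher with MIF (2.81%) and 379 higher with sCD74 (1.71%), 1004 in all or 4.52%. Over all probe sets the median difference was 0.01. Of the probe sets with an unadjusted p under 0.05, 62.3% lay higher with MIF in this fit (625 of 1004) and 51.6% after a second quantile normalization (539 of 1044). Most measured members of the NF-kappaB list and of the chemokine and cytokine list lay higher with MIF, with median differences of 0.28 and 0.25. All lists were chosen with earlier results of these data known, so list counts and medians are a description and no independent support. On the sCD74 side the differences were smaller, none reached 1 (0% of 22206, against 3 probe sets or 0.0135% on the MIF side), and interferon-stimulated genes were the list with the lowest median.

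**Figure D1:**
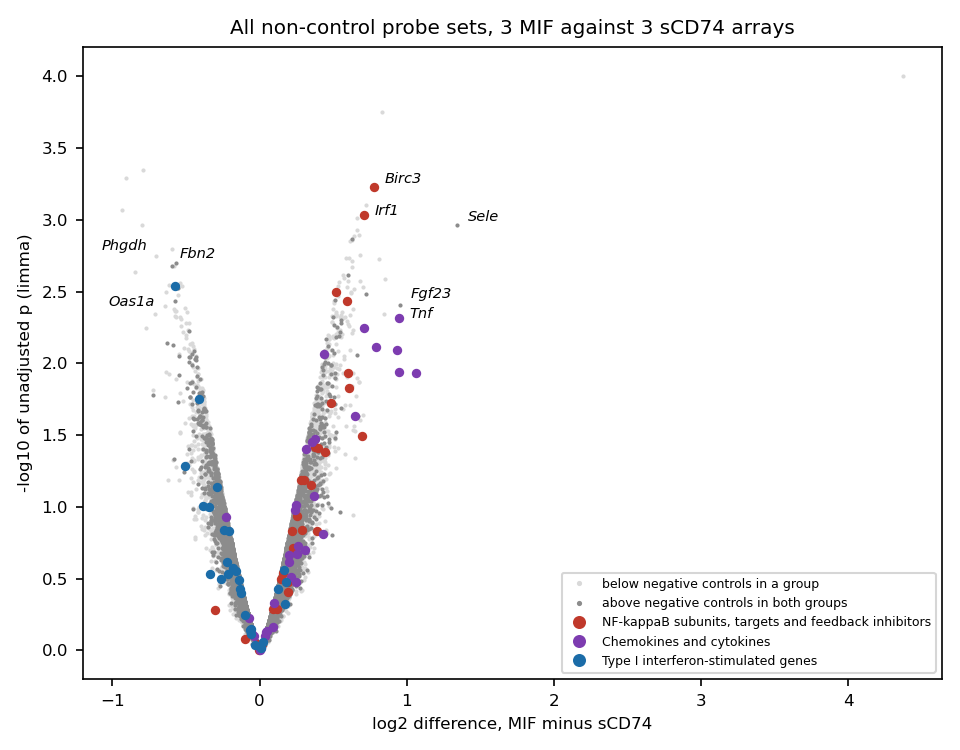
Difference between MIF and sCD74 (x axis, log2) against the -log10 of limma's unadjusted p (y axis) for 22206 probe sets. Grey points are probe sets, pale where a group mean lay below the negative control level, and colours mark members of 3 gene lists. NF-kappaB genes and chemokines sit mostly to the right of 0 and interferon-stimulated genes mostly to the left, and no point passed the adjusted threshold.

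Of 31 measured genes in a list of NF-kappaB subunits, targets and feedback inhibitors, 27 lay higher with MIF at any size, against 53.2% of all probe sets. Since the list was chosen with earlier results of these data known, its counts describe the list only. The median difference was 0.28, and 0 of the 31 passed after adjustment. At an unadjusted p under 0.05, 11 of 31 (35.5%) lay higher with MIF and 0 higher with sCD74, beside 2.81% and 1.71% of all probe sets. In 13 of the 31 all 3 replicates lay higher with MIF, beside 12.6% of all probe sets. The 4 with the smallest p were Birc3, Irf1, Tlr2 and Nfkbia.

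Birc3 encodes a ubiquitin ligase of the inhibitor-of-apoptosis family that acts in TNF receptor complexes. Its levels in replicates 1, 2 and 3 were 12.41, 13.23 and 13.23 with MIF and 11.96, 12.32 and 12.26 with sCD74. The lowest MIF array lay above the highest sCD74 array, a separation seen in 3.71% of all probe sets, and carrier arrays at 11.94, 12.42 and 12.10 lay near those with sCD74. The difference was 0.78 ± 0.15 (SE, 95% interval 0.44 to 1.12). Irf1, a transcription factor of interferon and inflammatory signalling, was at 10.76, 11.72 and 11.98 with MIF and 10.30, 11.01 and 11.02 with sCD74, a difference of 0.71 ± 0.15 (0.38 to 1.04). Each MIF array of Irf1 lay above its sCD74 partner, but the MIF array of replicate 1 lay below the sCD74 arrays of replicates 2 and 3.

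Nfkbia encodes the inhibitor that holds NF-kappaB in the cytoplasm and is itself induced by it. It was at 11.43, 12.16 and 12.34 with MIF and 11.15, 11.53 and 11.48 with sCD74, a difference of 0.59 ± 0.15 (0.25 to 0.94). Its carrier arrays, at 11.17, 11.53 and 11.44, lay close to the sCD74 arrays of the same number, while the arrays with both proteins lay at 11.88, 12.03 and 12.12. Tlr2, a receptor for bacterial lipoproteins, was at 11.24, 13.35 and 13.24 with MIF against 10.77, 12.86 and 12.63 with sCD74, a difference of 0.52 ± 0.13 (0.23 to 0.82). Replicate 1 was more than 1 below the others for Tlr2 in both groups, so the groups overlapped although all 3 pairs had the same sign.

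**Figure D2:**
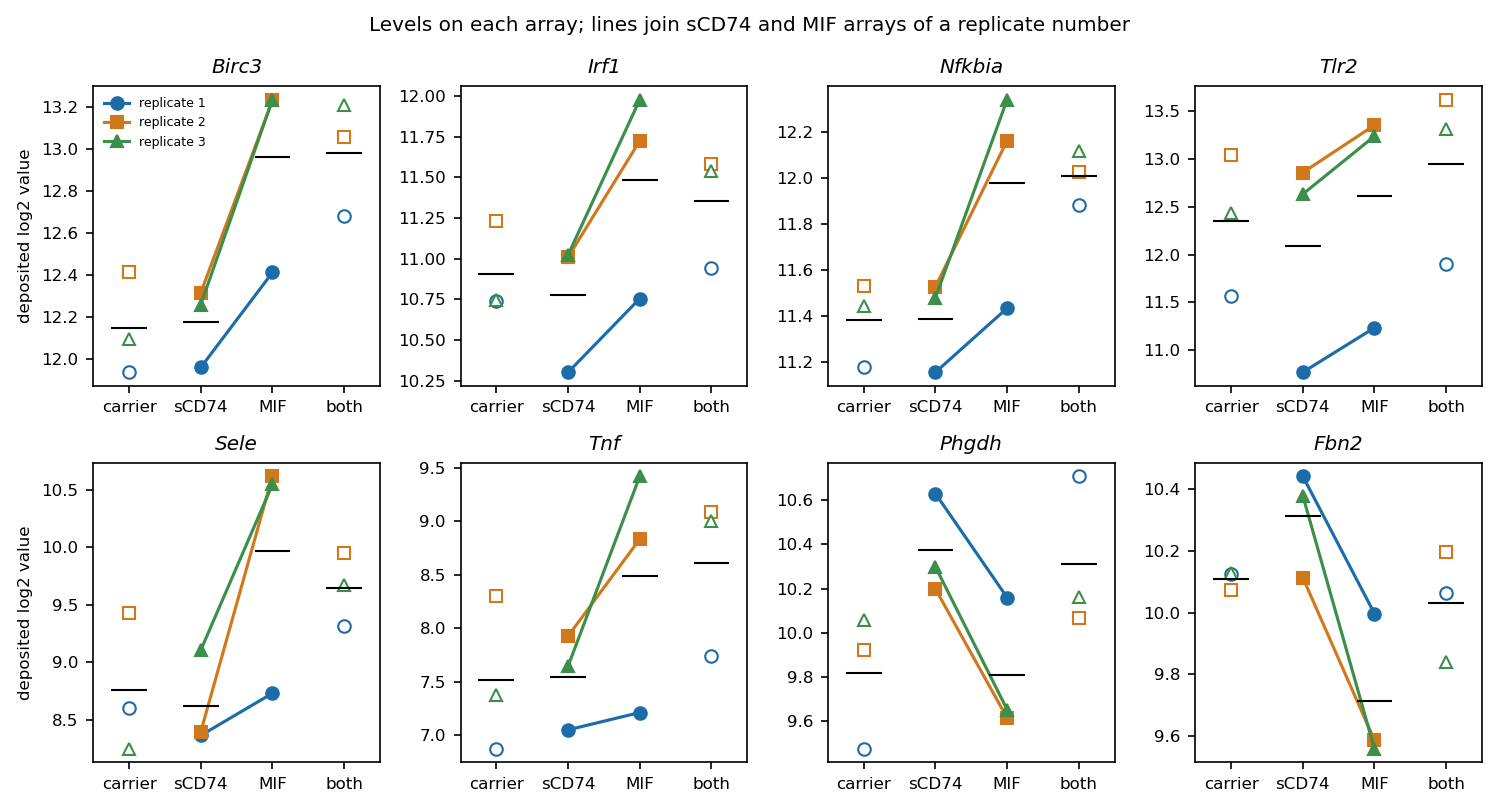
Deposited log2 values (y axis) of 8 genes on each of 12 arrays, by treatment (x axis). Marker shape gives the replicate number, lines join the sCD74 and MIF arrays of a number, open markers are carrier and co-treated arrays, and short bars are group means. The joined lines run upward from sCD74 to MIF in all 3 replicates for Birc3, Irf1, Nfkbia, Tlr2, Sele and Tnf, and downward in all 3 for Phgdh and Fbn2.

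The promoters of these 4 genes are shown because NF-kappaB binds kappaB sites, and the sequences let the sites near the start be read. They are the 250 bases before the annotated start from RefSeq on GRCm38.p6, written 5′ to 3′ along the gene's strand, and capitals mark matches to the 10-base kappaB consensus on either strand. Irf1 lies on the plus strand at chr11:53769764-53770013 and is 1 of 2 promoters of the gene. Where a gene had several promoters, the first that held a match was shown, so the choice favours a match in Irf1. Nfkbia lies on the minus strand at chr12:55492648-55492897, Tlr2 on the minus strand at chr3:83841609-83841858 and Birc3 on the minus strand at chr9:7873171-7873420.
Irf1: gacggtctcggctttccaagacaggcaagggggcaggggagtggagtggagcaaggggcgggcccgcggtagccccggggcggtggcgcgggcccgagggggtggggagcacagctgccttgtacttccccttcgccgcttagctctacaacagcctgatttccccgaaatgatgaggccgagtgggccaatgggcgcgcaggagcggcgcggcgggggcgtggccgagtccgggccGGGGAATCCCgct
Nfkbia: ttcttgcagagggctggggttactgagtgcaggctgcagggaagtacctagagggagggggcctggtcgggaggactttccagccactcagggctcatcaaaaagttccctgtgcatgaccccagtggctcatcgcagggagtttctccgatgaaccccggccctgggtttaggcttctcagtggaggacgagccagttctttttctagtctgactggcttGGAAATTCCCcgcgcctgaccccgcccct
Tlr2: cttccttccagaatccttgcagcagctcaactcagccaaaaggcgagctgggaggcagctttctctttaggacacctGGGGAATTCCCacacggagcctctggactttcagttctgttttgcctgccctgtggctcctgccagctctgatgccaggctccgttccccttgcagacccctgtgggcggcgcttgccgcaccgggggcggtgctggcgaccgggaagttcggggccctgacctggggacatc
Birc3: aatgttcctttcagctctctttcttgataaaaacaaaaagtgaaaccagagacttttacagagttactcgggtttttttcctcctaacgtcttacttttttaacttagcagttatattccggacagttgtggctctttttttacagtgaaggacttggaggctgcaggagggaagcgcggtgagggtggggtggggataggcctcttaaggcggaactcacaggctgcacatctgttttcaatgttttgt
The Irf1 match ran from base 13 to base 4 before the start and that of Nfkbia from base 29 to base 20. Tlr2 held 2 overlapping matches between bases 173 and 163, and Birc3 held no match in these letters. In windows from 250 bases before to 50 after the start, 14 of 28 list genes with a promoter entry held a match (50%), beside 4.51% of 32851 promoters and 5.14% of 27025 genes. The list was put together as known NF-kappaB genes, so this share describes the list and not the arrays.

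Other members of the list showed the same order with wider spread between replicates. Tnfaip3, the ubiquitin-editing inhibitor A20, differed by -0.02, 1.10 and 0.73 in the 3 replicates, on average 0.61 ± 0.20 (0.15 to 1.06). Gch1, which starts tetrahydrobiopterin synthesis, differed by 0.22, 0.40 and 1.19, on average 0.60 ± 0.19. The lectin receptor gene Clec4e differed by 0.28, 0.09 and 1.72, on average 0.70 ± 0.28, so most of its difference came from replicate 3. The subunit genes lay closer: Rel differed by 0.38 ± 0.16 (0.03 to 0.73), Nfkb2 by 0.29 ± 0.18 (-0.12 to 0.69) and Rela by 0.23 ± 0.16 (-0.14 to 0.59). The intervals of Nfkb2 and Rela held 0. Replicates did not contribute evenly to the list, with medians of 0.00, 0.19 and 0.68 in replicates 1, 2 and 3 and 16, 26 and 30 of 31 members higher with MIF. The acute-phase gene Lcn2, chosen after its values were seen, differed by -1.19, -1.23 and 1.52, and Saa3 by -1.27, -0.69 and 1.67, so these were higher with sCD74 in replicates 1 and 2 and higher with MIF in replicate 3.

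Secreted signals followed a like order. Of 33 chemokine and cytokine genes 29 lay higher with MIF, with a median of 0.25. An unadjusted p under 0.05 was found for 11 (33.3%), all higher with MIF, beside 2.81% of all probe sets. In 12 all 3 replicates lay higher with MIF and in 1 all 3 lay higher with sCD74, against 12.6% and 10.8% of all probe sets. The latter was Ccl4, a macrophage chemokine, at -0.23 ± 0.13. None passed after adjustment.

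Tnf, the founding cytokine of its family and an activator of NF-kappaB, was at 7.21, 8.84 and 9.42 with MIF and 7.05, 7.93 and 7.65 with sCD74, a difference of 0.95 ± 0.26 (0.37 to 1.53). Both arrays of replicate 1 lay below the negative control level, and the sCD74 mean of 7.54 was only just above it. Il1b, which encodes the inflammasome-processed cytokine IL-1beta, was at 8.82, 9.63 and 10.66 with MIF and 8.76, 8.74 and 8.81 with sCD74. The sCD74 arrays lay close together and the MIF arrays far apart, the groups did not overlap, and the difference was 0.93 ± 0.28 (0.31 to 1.56).

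The monocyte attractant gene Ccl7 was at 11.42, 12.59 and 12.93 with MIF and 11.33, 11.49 and 11.99 with sCD74, a difference of 0.71 ± 0.20 (0.27 to 1.15). Ccl5, which attracts T cells and monocytes, was at 7.59, 8.87 and 10.54 with MIF and 7.20, 8.50 and 8.94 with sCD74, a difference of 0.79 ± 0.23 (0.27 to 1.31). For both genes all 3 pairs had the same sign but replicate 1 was low in either group. The main monocyte attractant, Ccl2, was chosen after its values were seen: it was at 12.997, 14.996 and 15.43 with MIF and 13.18, 13.63 and 13.77 with sCD74, a difference of 0.95 ± 0.30 (0.27 to 1.63). In replicate 1 Ccl2 was slightly lower with MIF, against the sign of the other pairs. With that replicate left out its difference was 1.52 ± 0.19 and passed limma's test (adjusted p = 0.0344). With all 3 pairs Ccl2 did not pass (limma adjusted p = 0.9998).

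Smaller differences were held evenly across replicates by Ccl20, an attractant for CCR6-bearing lymphocytes, at 0.49, 0.38 and 0.43 (0.44 ± 0.13 on average), and by the membrane-bound chemokine gene Cx3cl1 at 0.27, 0.40 and 0.28 (0.32 ± 0.13). Il1a, whose product shares its receptor with IL-1beta, differed by 0.53, -0.02 and 1.43 (0.65 ± 0.24). Cxcl10, an interferon-inducible attractant for T cells, differed by 0.21, 0.21 and 0.71 (0.38 ± 0.15). Cxcl9 lay below the negative control level with sCD74, so no size is given: its levels were 7.03, 7.82 and 9.77 with MIF and 6.86, 7.15 and 7.41 with sCD74.

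**Figure D3:**
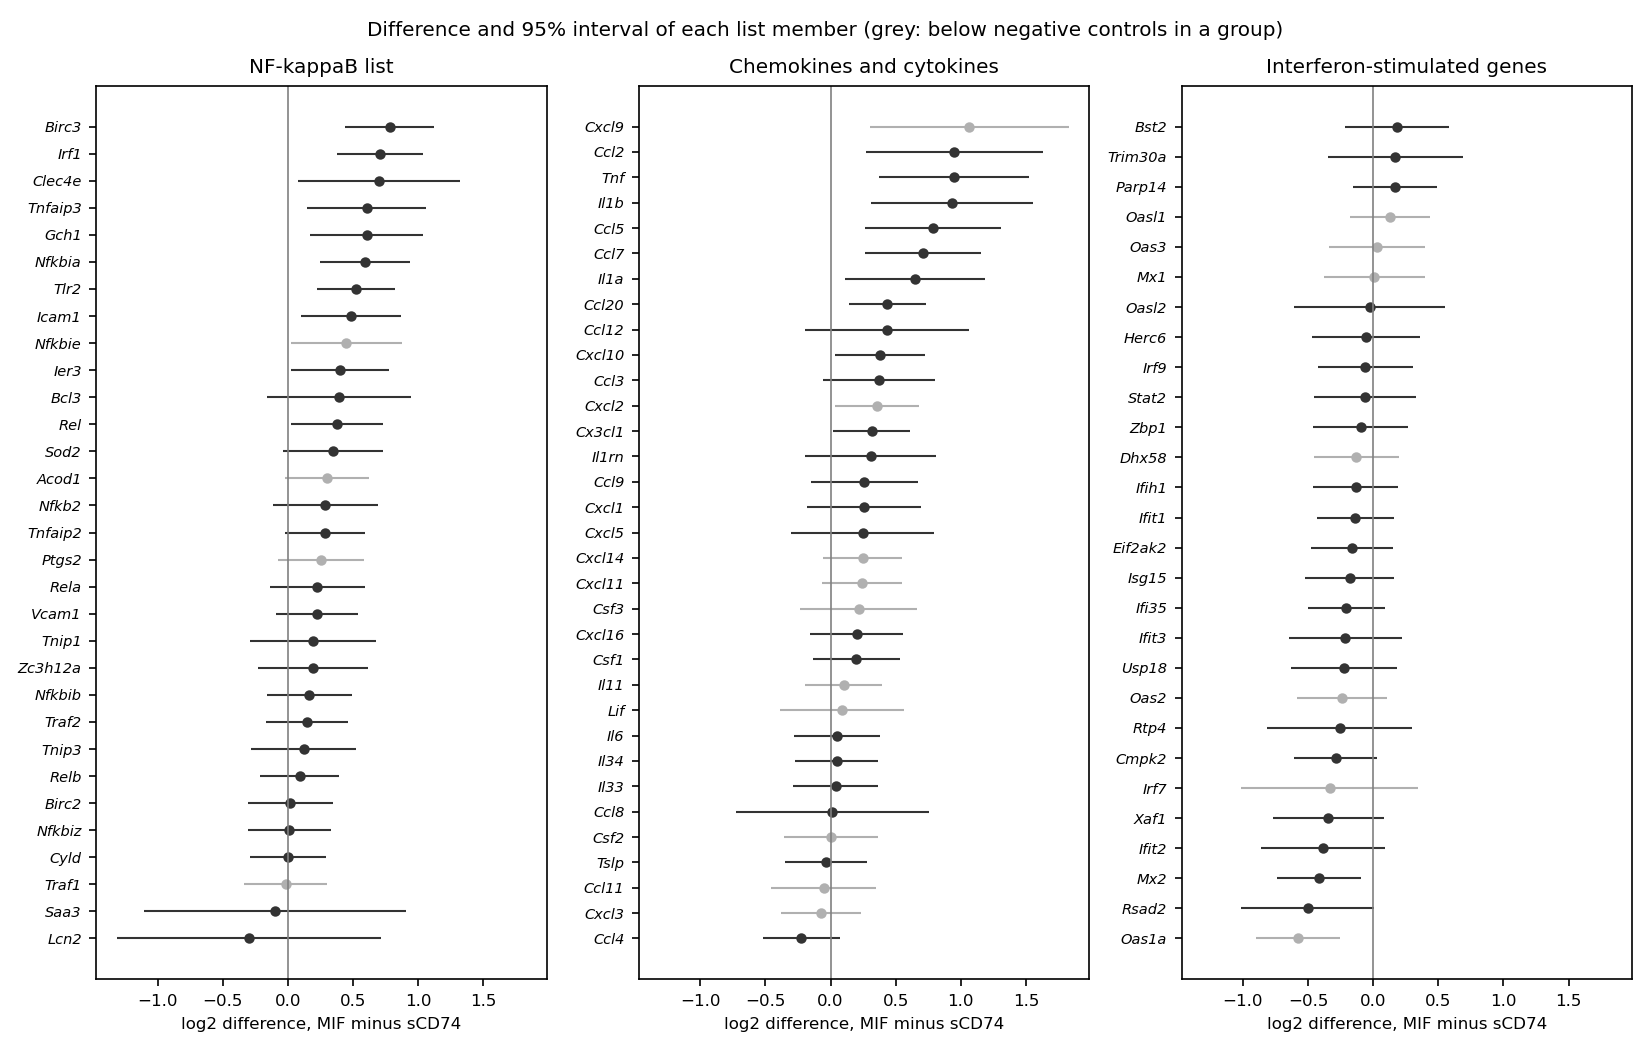
Difference between MIF and sCD74 (x axis, log2) for each measured member of 3 gene lists, as limma's estimate with its unadjusted 95% interval over 3 pairs. Grey marks genes with a group mean below the negative control level. Intervals clear of 0 lie on the MIF side for 11 of 31 NF-kappaB genes and 11 of 33 chemokines and cytokines, and on the sCD74 side for 2 of 28 interferon-stimulated genes. Over all probe sets the shares are 2.81% on the MIF side and 1.71% on the sCD74 side.

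Beyond these lists, 12 genes were taken by smallest p among those above the negative control level and higher with MIF in all 3 replicates. Predicted genes and some gene families were passed over. The 12 held ranks 5 to 88 by p among all probe sets and also included adhesion, receptor and growth factor genes. They were picked for their small p, so their sizes are a description: the differences ranged from 0.50 to 1.34, and limma gave unadjusted p from 0.00059 to 0.00499. In 4 of the 12 the groups did not overlap, beside 3.71% of all probe sets, and the pick by small p favours this as well. Sele encodes E-selectin, the endothelial adhesion molecule that slows leukocytes on activated vessels. It was at 8.73, 10.62 and 10.55 with MIF and 8.36, 8.39 and 9.10 with sCD74, the largest difference of a named gene at 1.34 ± 0.28 (0.70 to 1.99). The MIF array of replicate 1 lay among the sCD74 arrays. Within replicates 1, 2 and 3 Sele differed by 0.37, 2.22 and 1.44. Without replicate 1, the pair that differed least, the difference was 1.83 ± 0.21 and passed limma's test (adjusted p = 0.0344). With all 3 pairs Sele did not pass (limma adjusted p = 0.9998). Icam1, an adhesion molecule of endothelium and stroma, differed by 0.48 ± 0.17 (0.10 to 0.87) and Vcam1 by 0.22 ± 0.14 (-0.09 to 0.54).

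The endothelial marker list is given beside Sele because that gene marks activated endothelium. Of 11 endothelial markers measured, 6 lay higher with MIF, with a median of 0.05, and 0 had an unadjusted p under 0.05. Their mean level was 10.94, 9.46 and 10.15 with MIF against 10.91, 9.58 and 9.88 with sCD74, and Cldn5 lay below the negative control level. The list moved with Sele in replicate 3 but not in replicate 2, where Sele differed most, and its part in the difference was not tested.

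The ICOS ligand gene Icosl, which costimulates T cells, was at 11.58, 12.61 and 12.72 with MIF and 10.95, 12.16 and 11.91 with sCD74, a difference of 0.63 ± 0.14. Olr1, the receptor for oxidised low-density lipoprotein, was at 11.86, 11.09 and 12.03 against 11.67, 10.20 and 10.93, a difference of 0.73 ± 0.18. Both had 3 pairs of the same sign and overlapping groups. Fgf23, which encodes the hormone that lowers phosphate, was at 8.92, 9.01 and 10.07 with MIF and 8.39, 8.53 and 8.22 with sCD74, with no overlap and a difference of 0.95 ± 0.25 (0.39 to 1.51). Gfra1, the co-receptor of the neurotrophic factor GDNF, was at 11.52, 11.16 and 11.08 against 10.75, 10.92 and 10.45, a difference of 0.55 ± 0.15. Gprc5a, an orphan receptor induced by retinoic acid, was at 10.24, 9.95 and 10.03 against 9.62, 9.46 and 9.59, a difference of 0.51 ± 0.13. In Gfra1 and Gprc5a, as in Fgf23, every MIF array lay above every sCD74 array.

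Adamts4, an aggrecan-cleaving protease, completed these 12 at 9.49, 8.60 and 9.41 with MIF and 9.01, 8.22 and 8.77 with sCD74, a difference of 0.50 ± 0.13 (0.20 to 0.80). For 8 of the 12 genes the carrier mean lay between the MIF and sCD74 means. A pick by the difference of those means favours this place for carrier, so the count describes the pick only. In Birc3, Olr1, Adamts4 and Sele the carrier means were 12.15, 10.86, 8.85 and 8.76, beside sCD74 means of 12.18, 10.93, 8.67 and 8.62. Thus carrier lay slightly below sCD74 in Birc3 and Olr1 and slightly above it in Adamts4 and Sele. Other genes of the 12 differed in this. In Gfra1 and Icosl the carrier means, 11.11 and 12.10, lay nearer the MIF means (11.26 and 12.30) than the sCD74 means (10.71 and 11.67). In Tlr2 the carrier mean of 12.35 lay about midway between 12.61 with MIF and 12.09 with sCD74.

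Type I interferon-stimulated genes lay the other way. Of 28 measured, 6 were higher with MIF and 22 with sCD74, and the median difference was -0.15. In 6 of 28 (21.4%) all 3 replicates lay higher with sCD74 and in 1 all 3 lay higher with MIF, beside 10.8% and 12.6% of all probe sets. Only Oas1a and Mx2 had an unadjusted p under 0.05, both higher with sCD74 (7.14%, beside 1.71% of all probe sets). None of the 28 passed after adjustment. Replicate 2 set most of this: the medians were 0.05, -0.48 and -0.07 in replicates 1, 2 and 3, with 16, 2 and 12 of 28 members higher with MIF. Without replicate 2 the list's median was 0.00.

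Mx2, a GTPase that restricts viruses, was at 7.23, 7.87 and 7.83 with MIF and 7.90, 8.16 and 8.12 with sCD74, with no overlap and a difference of -0.41 ± 0.14 (-0.74 to -0.09). Rsad2, which encodes the antiviral enzyme viperin, was at 6.90, 7.72 and 8.09 with MIF and 6.68, 8.84 and 8.70 with sCD74, a difference of -0.50 ± 0.22 (-1.01 to 0.00). Rsad2 was lower with MIF in replicates 2 and 3 and slightly higher in replicate 1, where both arrays lay below the negative control level. Cmpk2, a mitochondrial nucleotide kinase gene next to Rsad2, was at 8.22, 8.99 and 8.98 against 8.53, 9.47 and 9.05, a difference of -0.29 ± 0.14 (-0.61 to 0.03). Oas1a, an oligoadenylate synthetase that senses double-stranded RNA, lay below the negative control level in both groups and is given no size: it was at 5.81, 6.76 and 6.73 with MIF and 6.36, 7.56 and 7.11 with sCD74. Isg15, a ubiquitin-like protein, differed by -0.18 ± 0.15 (-0.52 to 0.16) and Ifit1, which binds viral RNA, by -0.14 ± 0.13 (-0.43 to 0.16).

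The promoters of Rsad2 and Oas1a are shown for contrast with those of the NF-kappaB genes. Capitals mark matches on either strand to the core of the interferon-stimulated response element, which is GAAA, any 2 bases and GAAA, in the 250 bases before the start (RefSeq, GRCm38.p6). Rsad2 lies on the minus strand at chr12:26456453-26456702 and Oas1a on the minus strand at chr5:120907526-120907775.
Rsad2: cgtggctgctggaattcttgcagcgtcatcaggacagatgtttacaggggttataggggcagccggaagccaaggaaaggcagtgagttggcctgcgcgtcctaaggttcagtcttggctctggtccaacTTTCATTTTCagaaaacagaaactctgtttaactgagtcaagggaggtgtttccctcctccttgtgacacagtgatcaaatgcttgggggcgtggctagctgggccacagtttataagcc
Oas1a: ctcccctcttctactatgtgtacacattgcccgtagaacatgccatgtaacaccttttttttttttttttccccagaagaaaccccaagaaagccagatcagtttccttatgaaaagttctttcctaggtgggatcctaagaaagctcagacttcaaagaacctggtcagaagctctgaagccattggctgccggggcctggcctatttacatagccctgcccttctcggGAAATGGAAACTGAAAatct
Rsad2 held 1 match, on the opposite strand, from base 120 to base 111 before the start, and Oas1a held 2 overlapping matches between bases 20 and 5. In windows from 250 bases before to 50 after the start, 11 of 20 genes of the interferon list with a promoter entry held the element (55%), beside 3.44% of 32851 promoters and 3.99% of 27025 genes, 1 of 28 genes of the NF-kappaB list and 2 of 22 chemokines and cytokines. The kappaB consensus was in 2 of the 20 interferon genes and 8 of the 22 chemokines and cytokines. Among the genes picked by small p it was in 4 of 10 higher with MIF that had a promoter entry (Irf1, Tlr2, Nfkbia and Gfra1) and in 0 of 8 higher with sCD74. Irf1, Tlr2 and Nfkbia are members of the NF-kappaB list and were counted there. The interferon element was in 1 of the 10 (Gfra1) and 0 of the 8. No gene passed the test, so these counts describe the picked genes and not a response.

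Interferon-inducible GTPases, which respond to interferon-gamma and to IRF1 as well as to type I interferon, did not lie with the type I list. All 10 measured had a mean difference above 0, with a median of 0.17, but 1 of 10 had all 3 replicates higher with MIF. Medians were 0.07, -0.23 and 0.48 in replicates 1, 2 and 3, and 9, 2 and 10 of the 10 lay higher with MIF. Iigp1, which attacks the vacuoles of intracellular parasites, was at 8.37, 8.92 and 10.01 with MIF and 7.74, 9.02 and 8.97 with sCD74, a difference of 0.52 ± 0.20 (0.06 to 0.98). It was the only member with an unadjusted p under 0.05 (1 of 10, beside 2.81% of all probe sets higher with MIF), and its sign turned in replicate 2.

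The mean level of each list on each array shows how the replicates divide. NF-kappaB genes averaged 10.35, 10.74 and 11.04 with MIF and 10.37, 10.52 and 10.36 with sCD74, so the groups were level in replicate 1 and farthest apart in replicate 3. With carrier the mean was 10.29, 10.53 and 10.27, and with both proteins 10.71, 10.85 and 10.96. Chemokines and cytokines averaged 9.23, 9.54 and 9.93 with MIF and 9.15, 9.37 and 9.23 with sCD74. Interferon-stimulated genes averaged 8.22, 8.86 and 9.03 with MIF and 8.21, 9.35 and 9.01 with sCD74, beside 8.36, 8.70 and 8.56 with carrier, so MIF and sCD74 differed in replicate 2 and were nearly level in replicates 1 and 3.

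**Figure D4:**
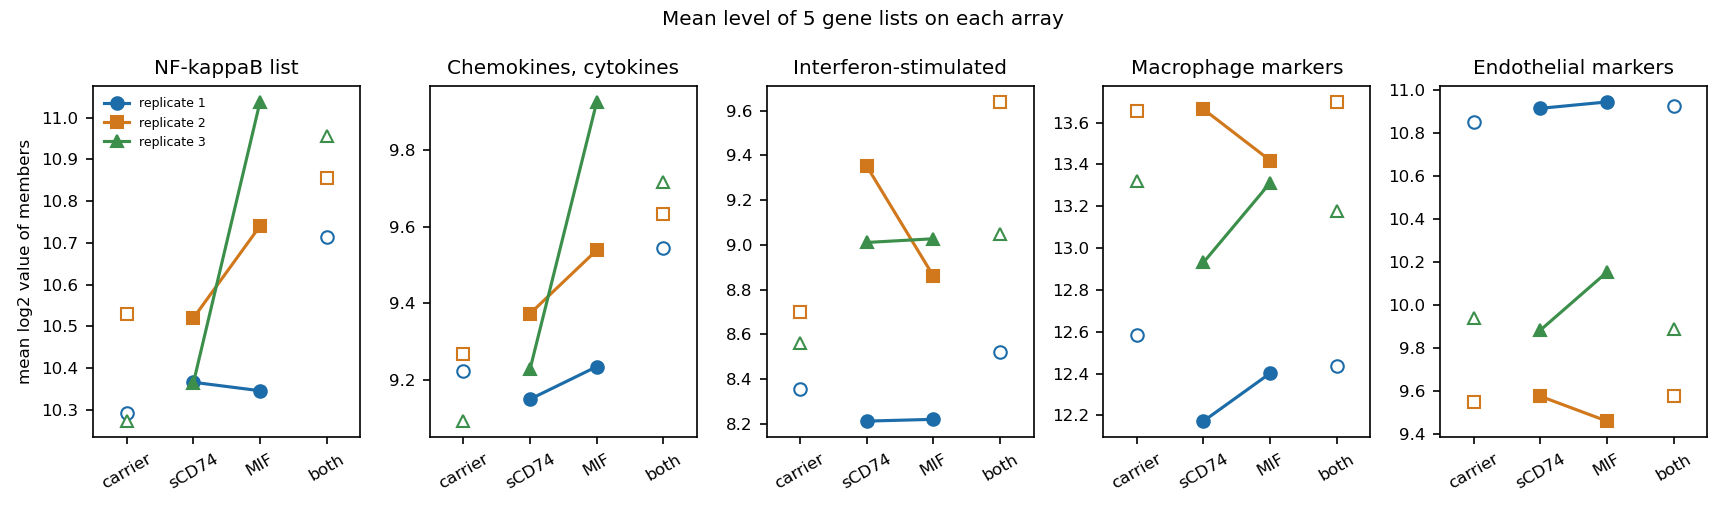
Mean deposited log2 value (y axis) of 3 pathway lists and 2 marker lists on each of 12 arrays, by treatment (x axis). Marker shape gives the replicate number, lines join the sCD74 and MIF arrays of a number, and open markers are carrier and co-treated arrays. The NF-kappaB mean is level in replicate 1 and highest with MIF in replicate 3, at 11.04, and the interferon mean in replicate 2 is 9.35 with sCD74 and 8.86 with MIF.

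Macrophages also make many of these chemokines, and their markers were present. All 17 macrophage markers measured lay above the negative control level in both groups. Their mean level was 12.40, 13.42 and 13.31 with MIF and 12.17, 13.66 and 12.93 with sCD74, lower in replicate 1 of both groups. The median difference was 0.24, -0.20 and 0.36 in replicates 1, 2 and 3, with 13, 1 and 15 of 17 higher with MIF. Trem2, a lipid-sensing receptor of tissue macrophages, differed by 0.65, 0.14 and 0.59 (0.46 ± 0.15) and Aif1, the macrophage protein IBA1, by 0.56, -0.01 and 0.76 (0.43 ± 0.17). They had the smallest p of the list. Cx3cr1, the next by p, lay lower with MIF in all 3 replicates (-0.22 ± 0.14). In 1 of 17 markers all 3 replicates lay higher with MIF and in 1 all 3 lay lower, beside 12.6% and 10.8% of all probe sets. In replicate 2 the macrophage list lay lower with MIF while 26 of 31 NF-kappaB genes lay higher. In replicates 1 and 3 the markers moved with the chemokines, and their part in those differences was not tested. In these bulk cultures fewer cells of a type and less RNA per cell cannot be told apart.

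On the sCD74 side 12 genes were chosen in the same way, after the same filters. They held ranks 25 to 182 by p among all probe sets. Their differences were smaller, from -0.63 to -0.43. In 6 of the 12 the groups did not overlap, beside 2.96% of all probe sets, but a pick by small p favours such genes. Phgdh, the first enzyme of serine synthesis from a glycolytic intermediate, was at 10.16, 9.61 and 9.65 with MIF and 10.63, 10.20 and 10.30 with sCD74, a difference of -0.57 ± 0.13 (-0.86 to -0.27). Carrier arrays of Phgdh were at 9.48, 9.92 and 10.06, with a mean of 9.82 beside the MIF mean of 9.81. Fbn2, the fibrillin of developing elastic microfibrils, was at 10.00, 9.59 and 9.56 with MIF and 10.44, 10.11 and 10.38 with sCD74, a difference of -0.60 ± 0.14 (-0.91 to -0.28). Its carrier mean, 10.11, lay between the means of 9.71 and 10.31.

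Prkdc, the catalytic subunit of the DNA repair kinase DNA-PK, was at 8.27, 8.36 and 8.72 with MIF and 8.61, 8.68 and 9.50 with sCD74, a difference of -0.48 ± 0.15 with overlapping groups. Akap8l, a nuclear anchoring protein, differed by -0.46 ± 0.14, and Tcaf2, a partner of TRP channels, by -0.43 ± 0.13 with no overlap. Eid3, a gene of the SMC5-SMC6 complex, differed by -0.57 ± 0.15 and Pbxip1, which binds PBX transcription factors, by -0.43 ± 0.13. An antisense and a noncoding transcript were among them, Fbxl12os at -0.63 ± 0.18 and the imprinted Kcnq1ot1 at -0.55 ± 0.17, and the labels do not say whether their probes separate strands. Phxr4 (-0.59 ± 0.17), Tmem80 (-0.47 ± 0.14) and Glt28d2 (-0.44 ± 0.13) completed the 12, each with no overlap. In 10 of the 12 genes the carrier mean lay between the MIF and sCD74 means, which the pick by their difference again favours.

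For the genes of the ligand, its receptors and partners every interval held 0. The list has 8 genes, of which 7 were measured and Cd74 itself was not analysed here. Of the 7, 5 lay higher with MIF, with a median of 0.12, and 0 had an unadjusted p under 0.05. Mif itself was at 10.66, 10.84 and 11.20 with MIF and 10.86, 10.92 and 10.58 with sCD74, a difference of 0.12 ± 0.18 (-0.28 to 0.52). Ddt, its homologue, differed by -0.09 ± 0.16 (-0.46 to 0.28). Among receptors and partners, Cd44 differed by 0.14 ± 0.15 (-0.19 to 0.47), Cxcr4 by 0.25 ± 0.20 (-0.21 to 0.71), Cxcr2 by -0.07 ± 0.21 (-0.55 to 0.41) and Ackr3 by 0.01 ± 0.24 (-0.53 to 0.55). Cxcl12, the chemokine that shares CXCR4 and ACKR3 with MIF, differed by 0.12 ± 0.14 (-0.19 to 0.42). The signs of Mif, Ddt, Cxcr2 and Ackr3 turned when 1 replicate was left out, and that of Ackr3 also when arrays were centred on their medians or normalized again.

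Medians of the collagen, matrix and contractile lists lay close to 0. Of 33 collagens and other matrix genes, 19 were higher with MIF, the median was 0.01, and 0 had an unadjusted p under 0.05. Col1a1, the main chain of type I collagen, differed by -0.04 ± 0.13 (-0.34 to 0.27), and Acta2, the smooth muscle actin that marks myofibroblasts, by -0.04 ± 0.14 (-0.35 to 0.27). Both were abundant, with Acta2 at 16.36 to 16.76 with MIF and 16.32 to 16.98 with sCD74. Contractile and stress fibre genes had a median of -0.03, with 8 of 21 higher with MIF. Of 20 TGF-beta ligands and response genes 14 were higher with MIF, with a median of 0.09. In 7 of 20 (35%) all 3 replicates lay higher with MIF, beside 12.6% of all probe sets. Among these 7, the ligand gene Tgfb2 differed by 0.15, 0.46 and 0.34 (0.31 ± 0.14) and Ltbp4, which holds latent TGF-beta in the matrix, by 0.24 ± 0.13 (-0.06 to 0.55). Tgfb2 alone of the 20 had an unadjusted p under 0.05 (5%, beside 2.81% of all probe sets). Of 24 matrix proteases and inhibitors 17 lay higher with MIF, with a median of 0.04. Besides Adamts4, the stromelysin gene Mmp11 had an unadjusted p under 0.05, at -0.27, -0.42 and -0.28 in the 3 replicates (-0.32 ± 0.13).

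Cell death genes were divided. Of 21 genes of necroptosis and death receptor signalling 15 were higher with MIF, with a median of 0.12. The 3 with an unadjusted p under 0.05 were Birc3, Tnf and Tnfaip3, described above (14.3%, beside 2.81% of all probe sets higher with MIF). The kinase gene Ripk3 and its substrate gene Mlkl, which executes necroptosis, were chosen after their values were seen. Ripk3 was at 9.14, 8.89 and 8.86 with MIF and 8.90, 8.83 and 8.44 with sCD74, a difference of 0.24 ± 0.14 (-0.08 to 0.55). Mlkl was at 12.14, 12.21 and 12.60 with MIF and 11.93, 12.23 and 12.08 with sCD74, a difference of 0.24 ± 0.15 (-0.10 to 0.58). Casp8, the protease that blocks necroptosis, differed by 0.01 ± 0.13 (-0.29 to 0.31), and Cflar, its inhibitor cFLIP, by -0.25 ± 0.14 (-0.56 to 0.07) with no overlap. Of 15 BCL2 family genes 10 lay higher with MIF, with a median of 0.06. Bad, a proapoptotic member, was at 7.29, 8.14 and 8.16 with MIF and 8.22, 8.39 and 8.31 with sCD74, a difference of -0.45 ± 0.17 (-0.84 to -0.06), and the survival gene Bcl2 differed by 0.27 ± 0.13 (-0.02 to 0.57).

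Of 22 immediate early genes 15 lay higher with MIF, with a median of 0.14. The orphan nuclear receptor gene Nr4a3 differed by 0.43 ± 0.16 (0.06 to 0.80) and the zinc finger gene Egr2 by 0.39 ± 0.18 (-0.01 to 0.79). Medians of the other lists lay between 0.00 and 0.07: cholesterol synthesis 0.01 with 11 of 17 higher with MIF, hypoxia and glycolysis 0.00 with 13 of 24, unfolded protein and amino acid response 0.01 with 11 of 19, cell cycle 0.00 with 11 of 22, and oxidative and metal stress 0.07 with 15 of 18. In these 5 lists only Phgdh had an unadjusted p under 0.05.

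**Figure D5:**
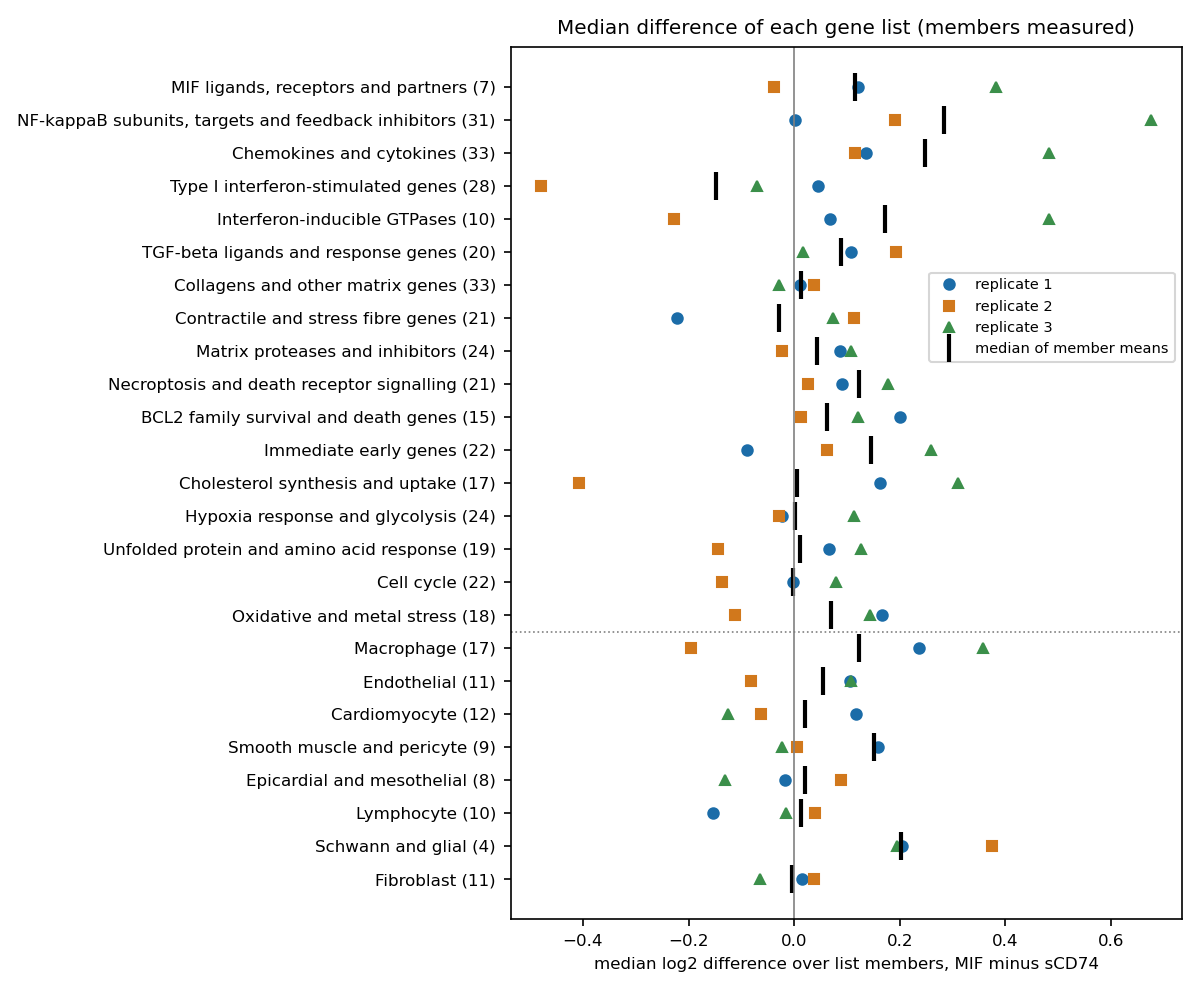
Median difference between MIF and sCD74 (x axis, log2) over the measured members of 17 pathway lists and, under the dotted line, 8 marker lists, with the number of members in brackets. Coloured markers are single replicates and black bars the median of the members' mean differences. NF-kappaB genes and chemokines have the highest bars of the pathway lists, at 0.28 and 0.25, and interferon-stimulated genes the lowest, at -0.15, and the replicates of each list are spread widely.

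Fibroblast markers lay close together in both groups. All 11 fibroblast markers measured lay above the negative control level, and their median difference was close to 0, with 5 of 11 higher with MIF. Lymphocyte markers were mostly dim, with 9 of 10 below the negative control level in a group. Cardiomyocyte markers had a median of 0.02, epicardial and mesothelial markers 0.02, and smooth muscle and pericyte markers 0.15, where 4 of 9 lay above the negative control level. Of 4 Schwann cell and glial markers measured 3 lay below the negative control level.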

How the data were processed

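Gene expression was measured on 12 Affymetrix arrays from labelled cDNA of total RNA, 3 in each of 4 groups, and 6 of them were compared here. The authors deposited log2 values, 1 column per array, and the tools listed in the submitters' processing notes, with no version, are RMA, Transcriptome Analysis Console and Affymetrix Expression Console. Normalization by RMA usually sets all arrays to a common distribution, which hides a shift shared by all genes. Values above 16, such as those of Acta2, exceed what a 16-bit scanner gives, and whether they were rescaled is unknown, so a log2 difference may not be a fold of RNA. Scanner files were not used here.

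Of 28846 probe sets 6640 were controls and left out. Of the other 22206, all tested, 19572 had 1 gene symbol in the platform's table and 2634 had none. Where probe sets shared a symbol, the brightest over the 12 arrays was taken for the gene, giving 19505 genes. The lmFit and eBayes functions of limma 3.58.1 (R 4.3.3), without trend or robust options, were fitted to the 6 arrays with the replicate number as a block, two-sided, with Benjamini-Hochberg adjustment at 0.05. Errors are standard errors of this fit and intervals are its unadjusted 95% intervals. The eBayes step draws each gene's spread toward a common one. For genes with uneven pairs, such as Sele and Clec4e, the error is therefore smaller than their own 3 pairs alone would give. The fit was run on simulated data with planted differences larger than that of any named gene here. Whether it would call differences of the present size was not tested. Replicate numbers count as pairs here because their titles share a code. Deviations from group means correlated within a number at r = 0.547, 0.390 and 0.166, against -0.444 to 0.161 between numbers. For replicate 3 this does not set the pair apart. Deviations within a group cancel, which pushes the values between numbers down.

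The comparison, its members and the gene lists were chosen with earlier results of these data known. The rule for named genes took 12 genes per direction by smallest p among those above the negative control level with 3 differences of the same sign, passing over predicted genes and olfactory, vomeronasal, microRNA and small nucleolar RNA families, 4 members per list by the same ranking of p, and the measured genes of the MIF list, and not every gene it took is described. Genes named beyond this, and further list members, were chosen after their values were seen. Some list members and some known pathway genes were not analysed here. No source used here gives the build of the probe sets, and the coordinates printed belong to RefSeq promoters on GRCm38.p6. Alternatives were centring, a second quantile normalization, no block, all 12 arrays, trend and robust variance, probe sets above the negative control level, 1 probe set per gene and leaving out each replicate.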

Additional observations from a re-analysis of the deposited data

How the results depend on the processing

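No probe set was called in the paired fit or without the replicate block, where 341 lay higher with MIF and 217 higher with sCD74 at an unadjusted p under 0.05. The other settings with all 3 replicates also called 0, with smallest adjusted p from 0.0947 (Birc3; 12 arrays, block, trend and robust variance, chosen after seeing the data) to 0.9998. Leaving out a replicate gave 0 to 2 calls higher with MIF: Sele and Ccl2 without replicate 1, TC1700001227.mm.2 without replicate 3, and 0 without replicate 2. The unadjusted count went from 1004 to 1525 without replicate 2, 456 among probe sets above the negative control level, and 624 with 12 arrays and no block. The median of the NF-kappaB list was 0.13 to 0.40, of chemokines 0.13 to 0.34 and of interferon-stimulated genes -0.22 to 0.00 with a replicate left out.

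Of 72 named genes recomputed under every alternative, 63 kept their direction throughout. Ackr3 turned on centring (-0.0015) and quantile normalization (-0.021), and Casp8 on centring (-0.0023). With a replicate left out, differences ran from -0.31 to 0.41 for Ackr3, -0.30 to 0.049 for Ddt, -0.14 to 0.27 for Mif, -0.28 to 0.28 for Cxcr2, -0.060 to 0.046 for Casp8, -1.21 to 0.16 for Lcn2, -0.98 to 0.49 for Saa3, -0.088 to 0.051 for Acta2 and -0.089 to 0.037 for Col1a1. The cause was not tested. Oas1a and Cxcl9 carry no size because a group mean lay below the negative control level.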

Other observations

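Single replicates differed from each other more than the mean differences show. In replicate 2, 0 of 17 cholesterol synthesis and uptake genes, 1 of 17 macrophage markers, 2 of 28 interferon-stimulated genes and 3 of 18 oxidative and metal stress genes lay higher with MIF, whereas 49.5% of all probe sets did. In replicate 3 the counts for the same lists were 16, 15, 12 and 11, with 51.6% of all probe sets, and in replicate 1 they were 13, 13, 16 and 12, with 52.8%. The cholesterol list, whose median over the 3 replicates was 0.01, had medians of 0.16, -0.41 and 0.31 in replicates 1, 2 and 3.

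Probe sets with a difference of at least 1 numbered 3 with MIF (0.0135% of 22206) and 0 with sCD74. Besides Sele and Cxcl9, the other was TC1700001227.mm.2, which has no gene symbol in the platform's table and lay below the negative control level with sCD74 on average. Its levels in replicates 1, 2 and 3 were 11.87, 10.74 and 11.63 with MIF, 5.63, 5.56 and 9.94 with sCD74, 6.53, 6.70 and 6.74 with carrier, and 5.32, 8.97 and 5.94 with both proteins. It was chosen after its values were seen.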
